A study of Mus musculus with 16 samples.

Results

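Bex1, Bex2, Bex4, Ptprz1, Car8, Padi2, Chodl and Tll1 are 8 of the 12393 genes that the arrays of this study name, and they are measured by 11 of its 22690 probe sets. They were chosen by their lower signal on these same arrays in mouse small cell lung cancer cells that carry an Nfib vector, so their differences between cells with and without that vector are given below as a description, with no test. On these arrays 7 of the 8 were at least 2-fold lower with the Nfib vector, as were 3.54% of all genes tested. Bex2 was the exception: its only probe set was at the dimmest level of the arrays in every sample, so it could not be checked. The label of a lowered Bex family held for Bex1 in both lines and for Bex4 in 1 line, 3583T3, since Bex4 was dim on all but 1 of the 3151T4 arrays. A further measured family member, Bex3, was at -0.57 (log2) in Nfib versus control and not called (limma adjusted p = 0.158). Ptprz1, Padi2, Bex1 and Tll1 also differed by several fold between the cell lines.

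The cells are the lines 3583T3 and 3151T4, made from dissociated mouse tumours. Small cell lung cancer is a neuroendocrine tumour of the lung, and the study asks what Nfib does in it as an oncogene. In each line 4 groups were measured on 2 arrays each, 16 arrays in 8 groups. Control cells were untransfected. Nfib cells carried the retroviral vector MSCV-Nfib-PGK-Neo, with a FLAG tagged Nfib cDNA, and were selected with G418. Mycl1 cells carried MSCV-L-myc-PGK-Puro and were selected with Puromycin (the current symbol of the gene is Mycl). Nfib+Mycl1 cells carried both vectors. A vector and its drug selection therefore go with the transgene in every comparison. Nothing in the labels says that the 2 arrays of a group came from separate cultures, so p-values reflect the spread among these arrays alone, and that spread may be technical. Arrays are numbered 1 and 2 in 3583T3, and 3 and 4 in 3151T4.

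The array labels were checked first. The Mycl probe set that sees the Mycl1 transgene read 10.22 (log2 signal) on 3583T3 Nfib replicate 2, which by label lacks the Mycl1 vector, and 2.67 on 3583T3 Nfib+Mycl1 replicate 2, which by label has it. The other arrays read 2.12 to 2.55 without and 9.08 to 11.05 with that vector. Both arrays carry the Nfib vector by label, so the split into arrays with and without it does not turn on them. For comparisons that involve Mycl1 the main counts are given with and without them, and single values in part. No Nfib probe set had its arrays with the Nfib vector above those without it in either line, so these arrays do not check the Nfib transgene. One Mycn probe set read 12.19 to 13.26 on every array with a vector and 2.03 to 2.56 on control arrays. Another Mycn probe set read 2.94 to 3.42 on all arrays. The first splits vector groups from control but does not tell the Nfib vector from the Mycl1 vector, and its cause was not tested. Of the 16 arrays, 12 correlated best with the other array of their group (r from 0.98 to 0.99 within groups).

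Nfib belongs to the nuclear factor I (NFI) transcription factors, a family that binds a palindrome of TTGGC and GCCAA and acts in brain and lung development. Several of the genes described here are known from the nervous system. BEX proteins are small proteins encoded mainly on the X chromosome; Bex1 and Bex3 bind the neurotrophin receptor p75 (Ngfr). Ptprz1 is a receptor tyrosine phosphatase and chondroitin sulphate proteoglycan of neural progenitors and glia, with pleiotrophin and midkine as ligands. Car8 is a carbonic anhydrase relative without enzyme activity that binds the inositol trisphosphate receptor Itpr1 and is abundant in Purkinje cells. Padi2 is a calcium-dependent enzyme that turns protein arginine into citrulline. Chodl (chondrolectin) is a membrane protein with a C-type lectin domain, known from motor neurons. Tll1 is a metalloprotease of the tolloid family, which trims procollagens and frees bone morphogenetic proteins (BMPs) from chordin.

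Promoters were read from RefSeq (build GRCm38.p6), 250 bases before to 50 bases after each gene's start. The table held 7 of the 8 genes, all but Car8. The Bex windows are printed because the family's promoters fall into near-identical pairs. Over an alignment of 290 bases, Bex1 and Bex4 have 287 identical bases (99%), and over 199 bases Bex2 and its relative Bex3 have 197 (99%). Bex1 and Bex2 align over only 30 bases. Each window below runs from base -130 to base 20, with the start of the gene as base 1, 5′ to 3′ on the gene's strand. Capitals mark TTGGC (or its reverse complement GCCAA) and CACGTG, the E-box letters that MYC family proteins bind. The windows are chrX:136215494-136215643 (minus strand) for Bex1, chrX:136138866-136139015 (plus) for Bex4, chrX:136068217-136068366 (minus) for Bex2 and chrX:136270123-136270272 (plus) for Bex3.
Bex1: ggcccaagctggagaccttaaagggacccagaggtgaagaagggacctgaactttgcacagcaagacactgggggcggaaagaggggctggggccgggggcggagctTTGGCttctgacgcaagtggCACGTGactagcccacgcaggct
Bex4: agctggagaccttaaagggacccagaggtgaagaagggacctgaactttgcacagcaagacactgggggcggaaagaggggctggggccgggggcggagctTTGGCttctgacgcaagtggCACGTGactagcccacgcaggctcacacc
Bex2: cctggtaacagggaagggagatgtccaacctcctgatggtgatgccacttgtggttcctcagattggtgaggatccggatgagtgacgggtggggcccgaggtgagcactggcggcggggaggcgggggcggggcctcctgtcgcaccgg
Bex3: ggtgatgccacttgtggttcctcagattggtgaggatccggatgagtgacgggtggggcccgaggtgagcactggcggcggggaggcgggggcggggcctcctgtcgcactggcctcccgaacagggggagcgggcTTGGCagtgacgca
Chodl and Padi2 are printed for the TTGGC letters alone, Chodl from base -220 to -90 (chr16:78930728-78930858, plus strand) and Padi2 from -220 to -70 (chr4:140906140-140906290, plus strand).
Chodl: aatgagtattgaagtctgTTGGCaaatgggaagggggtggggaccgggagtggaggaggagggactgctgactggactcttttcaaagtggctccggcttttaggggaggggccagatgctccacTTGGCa
Padi2: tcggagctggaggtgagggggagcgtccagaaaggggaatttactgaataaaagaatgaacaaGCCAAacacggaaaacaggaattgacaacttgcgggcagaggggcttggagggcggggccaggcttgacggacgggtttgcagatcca
Searched on both strands of the whole promoters, which run past the printed stretches, TTGGC is in 5 of the 7 (Bex1, Bex2, Bex4, Padi2 and Chodl) and not in those of Ptprz1 and Tll1. The match of Bex2 is at bases 44 to 48, outside the stretch printed above. TTGGC is a short motif, held by 46.7% of all 32851 promoters of the table. It is also in at least 1 listed promoter of 9 of 9 other BEX and TCEAL genes. The full palindrome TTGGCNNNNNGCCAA is in 0 of the 7 and in 0.0365% of all promoters. CACGTG is in 2 of the 7, Bex1 and Bex4, against 7.15% of all promoters, and also in at least 1 listed promoter of 7 of 9 other BEX and TCEAL genes. A match describes the letters of a promoter, and no match says only that these letters are not in it.

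Bex1 was above the dimmest level of the arrays in all 8 groups and lower with the Nfib vector in both lines. In 3583T3 its log2 signal was 11.49 and 10.97 in control, 11.31 and 12.01 with Mycl1, 8.21 and 9.05 with Nfib, and 8.29 and 7.12 with Nfib+Mycl1. In 3151T4 it was 6.96 and 7.02 in control, 9.19 and 8.48 with Mycl1, 4.37 and 4.79 with Nfib, and 5.68 and 6.39 with Nfib+Mycl1. Within each line, all 4 arrays with the Nfib vector lay below all 4 without it. Ordered by group mean, 3583T3 Mycl1 (11.66 ± 0.49, SD, n = 2) and 3583T3 control (11.23 ± 0.37) came first and overlapped. Next were 3151T4 Mycl1 (8.84 ± 0.50), 3583T3 Nfib (8.63 ± 0.60) and 3583T3 Nfib+Mycl1 (7.70 ± 0.82), each overlapping its neighbour in that order. The lowest were 3151T4 control (6.99 ± 0.04), 3151T4 Nfib+Mycl1 (6.03 ± 0.50) and 3151T4 Nfib (4.58 ± 0.29), which did not overlap each other. In a bulk sample, fewer cells of a type and less RNA per cell cannot be told apart.

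Bex4 was measurable in 3583T3 without the Nfib vector and in almost no other sample. In 3583T3 it read 8.60 and 8.02 in control, 8.22 and 7.94 with Mycl1, 2.83 and 3.27 with Nfib, and 2.88 and 2.74 with Nfib+Mycl1. In 3151T4 it read 2.15 and 2.38 in control, 2.82 and 2.80 with Mycl1, and 1.98 and 2.20 with Nfib. For comparison, the lower quartile of all probe sets was 2.82 to 2.94 over the arrays, which is called the dim level here. Nfib+Mycl1 replicate 3 of 3151T4 stood apart at 4.73, against 2.48 on replicate 4. Bex4 was thus at or near the dim level with the Nfib vector in 3583T3, and was there already in 3151T4 control cells, while Bex1, with nearly the same promoter letters, was above it there. Bex2 read 2.20 to 2.79 over all 16 arrays (median 2.40), with means of 2.39 on arrays with and 2.47 on arrays without the Nfib vector. It never passed the filter of log2 4 on at least 2 arrays and was not tested. Whether probes of one Bex gene also bind RNA of another was not tested.

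Ptprz1 had the widest range of the 8 genes. Its brightest probe set read 11.30 and 11.31 in 3583T3 control, 10.92 and 11.27 with Mycl1, 9.08 and 8.69 with Nfib, and 8.66 and 9.45 with Nfib+Mycl1. In 3151T4 it read 6.83 and 6.69 in control, 6.28 and 6.22 with Mycl1, 2.71 and 2.82 with Nfib, and 2.89 and 2.97 with Nfib+Mycl1. Every 3583T3 array, including those with the Nfib vector, was above every 3151T4 array, and in 3151T4 the Nfib vector arrays were at the dim level. Ordered by mean, control lay just above Mycl1 in 3583T3 and Nfib+Mycl1 overlapped Nfib, while in 3151T4 the 4 groups did not overlap. The other 2 probe sets of the gene also had all 4 Nfib vector arrays below all 4 others within each line. In 3151T4 one of them read 4.36 to 5.27 without and 2.45 to 3.93 with the vector, and the other 3.77 to 4.26 and 2.15 to 2.75.

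The control arrays of Car8 overlapped between the lines. Car8 read 8.65 and 7.91 in 3583T3 control, 7.90 and 8.54 with Mycl1, 6.12 and 5.37 with Nfib, and 4.01 and 6.44 with Nfib+Mycl1. In 3151T4 it read 8.57 and 9.42 in control, 8.0 and 7.44 with Mycl1, 3.99 and 4.62 with Nfib, and 5.35 and 5.53 with Nfib+Mycl1. The groups with and without the Nfib vector did not overlap in either line, but the 2 arrays of 3583T3 Nfib+Mycl1 were far apart, and the higher is the array whose Mycl signal goes against its label. Another Car8 probe set read 1.88 to 3.33 and never passed the filter.

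Padi2, like Ptprz1, was lower in 3151T4 in each of the 4 vector groups. It read 8.70 and 8.76 in 3583T3 control, 9.30 and 8.88 with Mycl1, 6.91 and 5.87 with Nfib, and 6.45 and 6.83 with Nfib+Mycl1. In 3151T4 it read 6.21 and 5.99 in control, 5.11 and 5.45 with Mycl1, 3.15 and 3.44 with Nfib, and 2.84 and 3.15 with Nfib+Mycl1. Arrays with and without the Nfib vector were apart in both lines, and the 3151T4 control arrays reached the level of 3583T3 cells with the Nfib vector.

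Chodl was lower with the Nfib vector and the only one of the genes called in Mycl1 versus control. It read 5.71 and 5.09 in 3583T3 control, 6.57 and 6.38 with Mycl1, 3.42 and 3.41 with Nfib, and 3.93 and 3.44 with Nfib+Mycl1. In 3151T4 it read 5.2 and 4.78 in control, 5.38 and 5.44 with Mycl1, 2.93 and 2.75 with Nfib, and 3.48 and 3.82 with Nfib+Mycl1. Mycl1 arrays lay above control arrays in each line, and all Nfib vector arrays were below both. Tll1, the tolloid protease, read 7.30 and 7.37 in 3583T3 control, 6.92 and 7.46 with Mycl1, 5.10 and 5.87 with Nfib, and 4.92 and 5.18 with Nfib+Mycl1. In 3151T4 Tll1 read 4.72 and 5.24 in control, 5.05 and 4.56 with Mycl1, 2.83 and 3.09 with Nfib, and 2.67 and 3.17 with Nfib+Mycl1. Its control and Mycl1 arrays overlapped in both lines, and the Nfib vector arrays were apart from them.

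**Figure D1:**
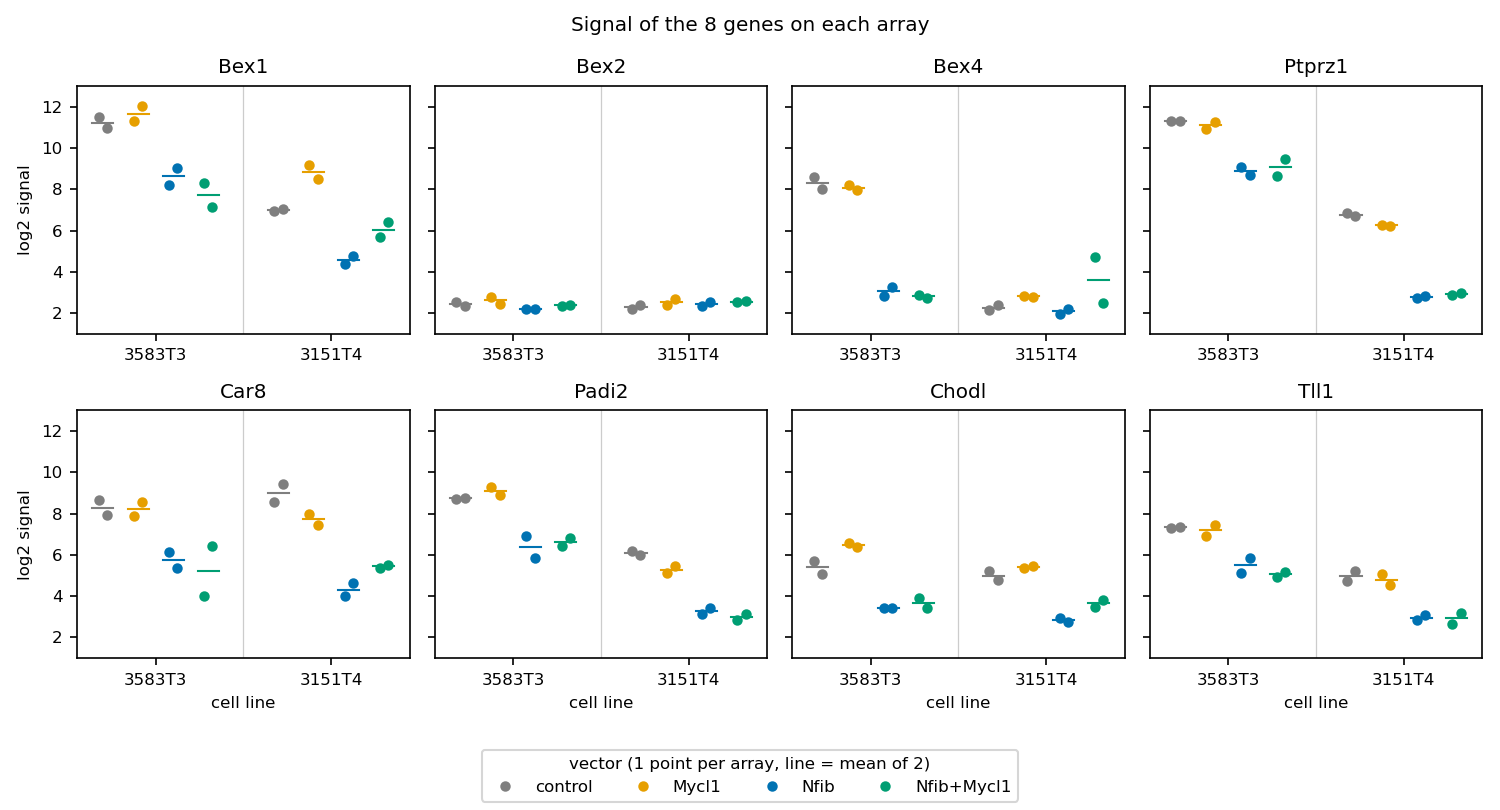
Log2 signal of the 8 genes (brightest probe set of each) by cell line and vector; each point is 1 array and each short line the mean of 2 arrays. In 3583T3 the Nfib and Nfib+Mycl1 points lie below control and Mycl1 for all genes but Bex2, and in 3151T4 for all but Bex2 and Bex4.

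Counted over the genes, all 4 arrays with the Nfib vector were below all 4 without it for 7 of 8 in 3583T3 and 6 of 8 in 3151T4. The same held for 5.92% and 7.3% of the 8777 genes past the filter, and for 1.73% in both lines together. These shares are the background of a list that was chosen for this difference, and nothing is read from the counts. In linear models with limma over all 16 arrays, with vector and line as terms, 7 of 8 were at least 2-fold lower in Nfib versus control (background 3.54%) and 7 of 8 in Nfib+Mycl1 versus Mycl1 (background 1.36%). The count was also 7 of 8 in Nfib+Mycl1 versus control (background 5.05%) and in Nfib versus Mycl1 (background 2.85%). These counts pool the lines. In 3151T4 alone, Nfib+Mycl1 minus control was 1.34 ± 0.49 (SE) for Bex4, which was higher, and -0.96 ± 0.41 for Bex1, less than 2-fold lower. All 4 counts stayed at 7 with any 1 array left out and without the 2 arrays whose Mycl signal goes against the label.

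In Nfib versus control (n = 4 arrays a side, both lines), Car8 was 12.2-fold lower (log2 difference -3.61 ± 0.49, SE) and Ptprz1 9.26-fold lower (-3.21 ± 0.31). Padi2 was 5.95-fold (-2.57 ± 0.27), Bex1 5.67-fold (-2.50 ± 0.46), Chodl 4.19-fold (-2.07 ± 0.23) and Tll1 3.82-fold lower (-1.93 ± 0.22). Bex4 was 6.57-fold lower with a wide error (-2.72 ± 1.09), since its difference came from 3583T3 alone. Nfib+Mycl1 versus Mycl1 shares no array with that comparison by label, but it too adds the vector that the genes were chosen on. The log2 differences there were -3.38 for Bex1, -2.68 for Ptprz1, -2.64 for Car8, -2.37 for Padi2, -2.28 for Chodl and -2.01 for Tll1. Bex4 was at -2.24 ± 1.09 there, lower in 3 of 4 arrays. With 1 array left out Bex4 ranged from -3.32 (without 3151T4 Nfib+Mycl1 replicate 3) to -1.55 (without 3583T3 Nfib+Mycl1 replicate 2). Leaving out the 2 arrays whose Mycl signal goes against the label gave -2.92 for Bex1, -2.96 for Ptprz1 and -3.00 for Car8. It gave -2.48 for Padi2, -2.10 for Chodl, -2.04 for Tll1 and -1.52 for Bex4.

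By line, Bex4 differed most: Nfib minus control was -5.26 ± 0.49 in 3583T3 and -0.18 ± 0.49 in 3151T4, where it was already dim, and with Mycl1 present it was -5.27 ± 0.49 and 0.79 ± 0.49. Ptprz1 showed -2.42 ± 0.25 in 3583T3 and -4.00 ± 0.25 in 3151T4, and Car8 -2.54 ± 0.59 and -4.69 ± 0.59. With Mycl1 present Car8 had -2.99 ± 0.59 and -2.28 ± 0.59, so the order of the lines was not the same in both backgrounds. Tll1 gave close values in both lines, -1.84 ± 0.31 and -2.02 ± 0.31 without Mycl1 and -2.14 ± 0.31 and -1.89 ± 0.31 with it. Padi2 was at -2.34 ± 0.30 and -2.81 ± 0.30, and with Mycl1 at -2.45 ± 0.30 and -2.29 ± 0.30. Chodl was at -1.99 ± 0.26 and -2.14 ± 0.26, but with Mycl1 at -2.79 ± 0.26 in 3583T3 and -1.76 ± 0.26 in 3151T4. Differences that end at the dim level can understate the change of the RNA, which concerns Ptprz1, Padi2, Chodl and Tll1 in 3151T4 and Bex4 in 3583T3. The 3583T3 values here include the arrays whose Mycl signal goes against the label.

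**Figure D2:**
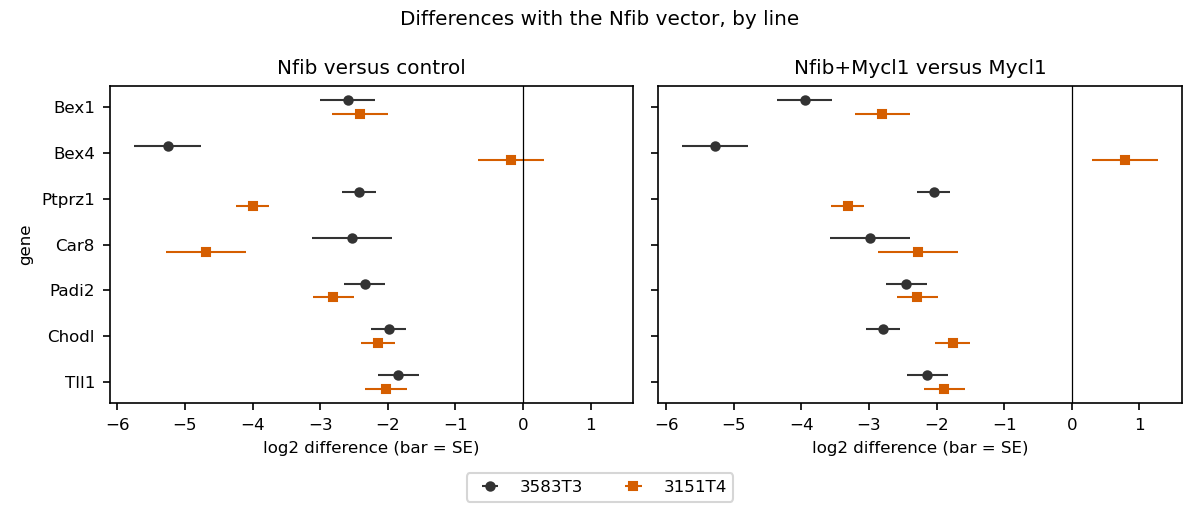
Log2 difference with the Nfib vector for the 7 genes past the filter, without (left) and with (right) the Mycl1 vector, by cell line; bars are standard errors from a model with 8 group means. Bex4 is near -5 in 3583T3 and near 0 or above it in 3151T4, and the other 6 genes are below 0 in both lines.

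The lines themselves were compared in the same model, 3583T3 versus 3151T4 over all vectors (8 arrays a side), a difference that the choice of genes did not use. Of the 8 genes, 6 passed (limma, p adjusted by Benjamini-Hochberg over all genes tested, under 0.05), all 6 higher in 3583T3. One of them, Bex4, passed the filter only through its 3583T3 arrays and so had to differ; nothing is read from its call, which leaves 5 of the 6 genes past the filter in 3151T4 alone. The lines differ widely, and 58.6% of all genes tested were called, 27.7% as higher in 3583T3. Ptprz1 was higher in 3583T3 (log2 difference 5.41 ± 0.22, SE, limma adjusted p = 1.7e-11). In control cells, where both lines were above the dim level, the means differed by 4.55, and with the Nfib vector, where 3151T4 was at that level, by 6.12. Padi2 (3.30 ± 0.19, adjusted p = 9.59e-10), Bex1 (3.20 ± 0.33, adjusted p = 7.74e-07) and Tll1 (2.35 ± 0.15, adjusted p = 5.39e-09) were also higher, and in control cells their means differed by 2.63, 4.24 and 2.35. Chodl was higher by 0.52 ± 0.16 (adjusted p = 0.0109), with overlapping arrays. Car8 was at 0.25 ± 0.35 (adjusted p = 0.553). With the 2 arrays of each group averaged, Chodl lost the call (adjusted p = 0.11), and Ptprz1, Padi2, Bex1 and Tll1 kept it.

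Mycl1 versus control asks whether the Mycl1 vector moved the same genes. It shares the control arrays with Nfib versus control. Chodl was the 1 gene of 8 called, against 11.3% of all genes tested (6.63% higher and 4.69% lower). It was 1.68-fold higher (0.75 ± 0.23, limma adjusted p = 0.045) and higher in 4 of 4 arrays. That call is at the edge: of 16 fits that each leave out 1 array, 13 ended it (0.61 to 0.86, adjusted p from 0.027 to 0.121), all but those without 3583T3 Nfib replicate 2, 3583T3 Nfib+Mycl1 replicate 2 or 3151T4 Nfib+Mycl1 replicate 4. Without the 2 doubted arrays together its adjusted p was 0.0228. Bex1 was at 1.14 ± 0.46 (adjusted p = 0.112, higher in 4 of 4 arrays), and at an adjusted p of 0.0307 without the 2 doubted arrays. The others were at -0.67 ± 0.49 for Car8 (adjusted p = 0.374), -0.36 ± 0.31 for Ptprz1 (0.442), -0.23 ± 0.27 for Padi2 (0.589), -0.16 ± 0.22 for Tll1 (0.651) and 0.16 ± 1.09 for Bex4 (0.942).

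Nfib+Mycl1 versus Nfib is the same question in cells with the Nfib vector, and shares the Nfib arrays with Nfib versus control. By limma 0 of 8 genes were called, against 16.9% of all genes tested (8.89% higher and 8.04% lower), and 1 had an unadjusted p under 0.05. That gene was Chodl, at 0.54 ± 0.23 (adjusted p = 0.11, higher in 4 of 4 arrays). Without 3583T3 Nfib+Mycl1 replicate 2 it was at 0.71 (adjusted p = 0.0368), and without both doubted arrays at 0.70 (adjusted p = 0.0429). The other values ran from -0.24 ± 0.22 for Tll1 to 0.63 ± 1.09 for Bex4, with Bex1 at 0.26 ± 0.46. On each side, 1 of the 2 arrays of 3583T3 is a doubted array. Without both, Bex1 was at 0.99, and the rest ran from -0.35 for Padi2 to 1.03 for Bex4.

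The Mycl1 difference was also compared between the lines. For Mycl1 versus control 0 of 8 genes differed by limma (background 2.13%), and 2 had an unadjusted p under 0.05, Bex1 and Padi2. Bex1 was at 0.43 ± 0.41 in 3583T3 and 1.85 ± 0.41 in 3151T4 (difference -1.42 ± 0.58, adjusted p = 0.325), and Padi2 at 0.36 ± 0.30 and -0.82 ± 0.30 (difference 1.18 ± 0.43, adjusted p = 0.259). Without the 2 doubted arrays Padi2 was called (adjusted p = 0.047). For Nfib+Mycl1 versus Nfib, 1 of 8 was called (background 7.53%). It was Bex1, at -0.93 ± 0.41 in 3583T3 and 1.45 ± 0.41 in 3151T4, a difference of -2.38 ± 0.58 (limma adjusted p = 0.0235). The 3583T3 value rests on the doubted arrays: without both it was 0.07 (8.29 minus 8.21, 1 array a side). Without both, the difference between the lines was -1.38 (adjusted p = 0.182), without 3583T3 Nfib replicate 2 it was -1.96 (0.0795) and without 3583T3 Nfib+Mycl1 replicate 2 it was -1.80 (0.0958). It also ended without 3151T4 Nfib replicate 3 (-2.17, adjusted p = 0.105), Nfib replicate 4 (-2.59, 0.0516) and Nfib+Mycl1 replicate 4 (-2.03, 0.0926), and with the replicate number as a block (adjusted p = 0.057). Car8 in turn was called without both doubted arrays (-3.24, adjusted p = 0.00406) and without 3583T3 Nfib+Mycl1 replicate 2 (-2.86, 0.0149), and Bex4 without 3151T4 Nfib+Mycl1 replicate 4 (-2.88, 0.00113), which leaves the array at 4.73 alone in its group. Each of these fits leaves groups of 1 array, and the lone array is assumed to vary like the other groups.

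**Figure D3:**
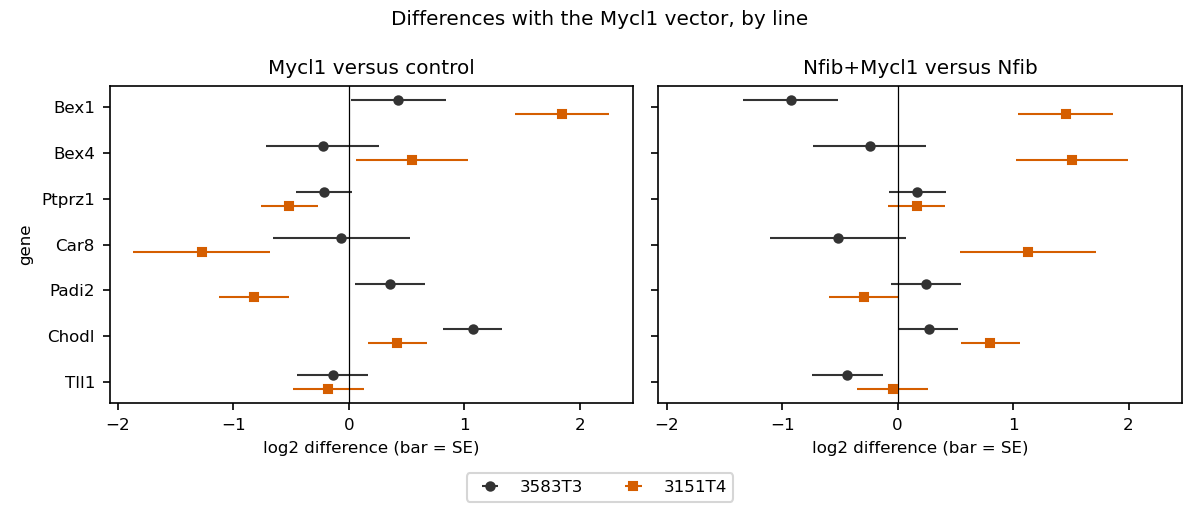
Log2 difference with the Mycl1 vector for the 7 genes past the filter, without (left) and with (right) the Nfib vector, by cell line; bars are standard errors from a model with 8 group means. Chodl is above 0 in both panels and lines, and Bex1 in 3583T3 lies at 0.43 in the left panel and at -0.93 in the right, a value that includes both doubted arrays.

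The relatives and partners of the genes were read from lists, in the same fit. In Nfib versus control, 5.3% of all genes rose and 4.96% fell, and the median log2 difference of all genes was 0.03. The medians were -0.43 for the other BEX and TCEAL genes, -0.35 for neurotrophin signalling, -0.26 for Ptprz1 ligands and partners and 0.21 for tolloid proteases with their substrates and ligands. Of 9 other BEX and TCEAL genes 4 passed the filter, and 1 rose and 0 fell: Tceal1, a nuclear relative of transcription elongation factor A, at 0.83 ± 0.20 (adjusted p = 0.0158). The call ended without 3583T3 control replicate 1 (0.77, adjusted p = 0.0565) or 2 (0.73, 0.0634) and without 3151T4 Nfib replicate 4 (0.67, 0.0661). Bex3, whose promoter pairs with that of Bex2, had a mean log2 signal of 11.61 and was at -0.57 ± 0.24 (adjusted p = 0.158), Tceal8 at -0.51 ± 0.17 (0.0636) and Tceal9 at -0.35 ± 0.13 (0.0943). By limma Bex3 passed in a model with 8 group means (adjusted p = 0.00724). In Nfib+Mycl1 versus Mycl1 Tceal1 was at 0.06 ± 0.20 (limma adjusted p = 0.879). Tceal1 was lower in 3583T3 than in 3151T4 (-2.21 ± 0.14, adjusted p = 4.19e-09), opposite to Bex1.

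Of 5 neurotrophin signalling genes tested, 0 rose and 1 fell in Nfib versus control. It was Sort1 (sortilin, a receptor that binds proneurotrophins), at -1.06 ± 0.24 (limma adjusted p = 0.0117), a gene named after its value was seen. Sort1 was at -0.80 in Nfib+Mycl1 versus Mycl1 (adjusted p = 0.0783) and -0.60 in Mycl1 versus control (0.115). In Nfib versus Mycl1 it was at -0.47 (adjusted p = 0.186). Between the lines 2 of the 5 were higher in 3583T3 and 3 lower. The ligand Bdnf was higher in 3583T3 (1.16, adjusted p = 5.67e-06), and the neurotrophin receptor Ntrk3 (-3.13, 9.54e-06) and the p75 partner Maged1 (-0.82, 5.34e-05) were lower. Of 9 Ptprz1 ligands and partners tested, 0 rose and 2 fell. Sdc3, a heparan sulphate proteoglycan that also binds pleiotrophin, was at -1.82 ± 0.32 (limma adjusted p = 0.00224). L1cam, an axonal adhesion protein named after its value was seen, was at -1.12 ± 0.30 (adjusted p = 0.0256), and lost the call without the 2 doubted arrays (-1.03, 0.0611) and without 3583T3 control replicate 1 or 2, 3583T3 Nfib replicate 2 or 3151T4 Nfib replicate 3 or 4 (-1.11 to -0.99, adjusted p from 0.064 to 0.0868). In Nfib+Mycl1 versus Mycl1 Sdc3 was at -0.92 (limma adjusted p = 0.111) and L1cam at 0.16 (0.784). In Mycl1 versus control they were at -0.76 (adjusted p = 0.127) and -0.73 (0.111). In Nfib versus Mycl1 they were at -1.06 (adjusted p = 0.0298) and -0.39 (0.371). Ptn, the ligand pleiotrophin, was at 0.88 ± 0.45 in Nfib versus control (adjusted p = 0.258). Ptn was lower in 3583T3 than in 3151T4 (-2.43 ± 0.32, adjusted p = 1.05e-05), the opposite of its receptor. Ptprg, the close relative of Ptprz1, was at -0.23 ± 0.24 (adjusted p = 0.634) with Nfib and fell in Mycl1 versus control (-1.33 ± 0.24, adjusted p = 0.00577).

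Of the 6 genes tested on the list of carbonic anhydrases and Itpr1, 0 passed in Nfib versus control by limma, and 2 had an unadjusted p under 0.05. Car9, an enzyme induced by hypoxia, was at 3.93 ± 1.32 (limma adjusted p = 0.0725). Without the 2 doubted arrays 2 of the 6 rose. Of 9 tolloid proteases, substrates and BMP ligands tested, 2 rose and 1 fell, and the same counts held without those arrays. Chrdl1, a BMP antagonist related to chordin, rose by 1.75 ± 0.30 (adjusted p = 0.00168) and the ligand Bmp4 by 1.15 ± 0.20 (adjusted p = 0.00208). Bmp1, the founding tolloid protease and a gene named after its value was seen, was at -1.05 ± 0.28 (limma adjusted p = 0.029), a call that ended without 3583T3 Nfib replicate 2, 3151T4 control replicate 3 or 4 or 3151T4 Nfib replicate 3 or 4 (-1.04 to -0.75, adjusted p from 0.0548 to 0.0867). In Nfib+Mycl1 versus Mycl1, where 1.78% of all genes rose and 1.99% fell, Bmp4 was again higher (1.32 ± 0.20, limma adjusted p = 0.00242). Chrdl1 was called there too (1.27 ± 0.30, adjusted p = 0.0296), but not with the replicate number as a block (0.0631). Bmp1 was not called there (-0.27 ± 0.28, adjusted p = 0.589). It was at -0.82 in Mycl1 versus control (adjusted p = 0.073) and -0.23 in Nfib versus Mycl1 (0.597). Between the lines 6 of these 9 were lower in 3583T3 and 0 higher, against 30.9% of all genes lower, while Tll1 was higher there. Other peptidylarginine deiminases (3 on the array) did not pass the filter, and the Chodl relative Layn was not found on the array.

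The broader neural lists were mostly too dim to test. Of 17 neuroendocrine genes on the array, 9 never passed the filter on any array, among them Chga, Chgb, Syp, Grp and Neurod1, which define such cells, while Ncam1, Uchl1 and Eno2 passed on all 16. In Nfib versus control 0 of 6 tested rose and 1 fell: Uchl1, a neuronal ubiquitin hydrolase named after its value was seen, at -1.73 ± 0.35 (limma adjusted p = 0.00529). Without the 2 doubted arrays the count that fell was 2. Of 6 neuronal genes tested 0 passed in that comparison by limma, 4 had an unadjusted p under 0.05, and their median was -0.69. Ina, an intermediate filament of neurons, rose in Mycl1 versus control (1.41 ± 0.28, limma adjusted p = 0.011) and fell in Nfib+Mycl1 versus Mycl1 (-1.59 ± 0.28, adjusted p = 0.00729). Uchl1 was not called in Nfib+Mycl1 versus Mycl1 (-1.05 ± 0.35, adjusted p = 0.0983).

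Markers of other cells moved between the same groups. The 15 leukocyte markers, of which only Adgre1 never passed the filter, as the log2 of their summed signal, were at 13.05 to 13.84 in 3583T3 control and 11.81 to 11.92 in 3151T4 control, and at 7.61 to 8.72 and 7.95 to 9.99 in the vector groups. Of 14 tested, 13 fell in Mycl1 versus control and 12 in Nfib versus control, and 0 in Nfib+Mycl1 versus Mycl1, where 1 had an unadjusted p under 0.05 (13, 11 and 0 without the 2 doubted arrays, by limma). Over the same arrays the mean of the 7 genes past the filter was 8.49 to 8.82 in 3583T3 control and 8.73 to 8.93 with Mycl1, and in 3151T4 5.81 to 5.93 and 5.77 to 5.98. That mean covers genes that went both ways, since in 3151T4 Mycl1 minus control was 1.85 ± 0.41 for Bex1, -1.28 ± 0.59 for Car8 and -0.82 ± 0.30 for Padi2. With Nfib the mean was 5.93 to 5.95 in 3583T3 and 3.14 to 3.39 in 3151T4, and with Nfib+Mycl1 5.59 to 5.89 and 3.93 to 3.95.

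**Figure D4:**
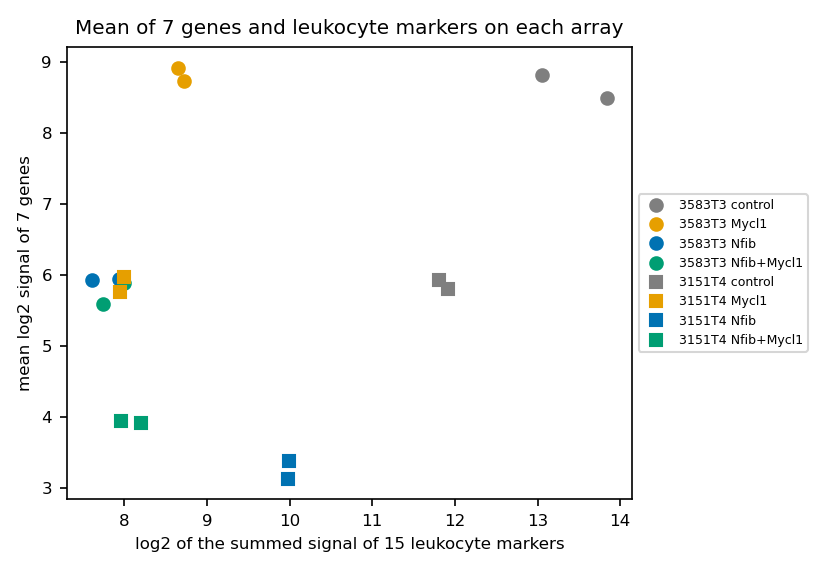
Mean log2 signal of the 7 genes past the filter against the log2 of the summed signal of 15 leukocyte markers, 1 point per array. Control arrays lie to the right of the vector arrays of their line, and the Nfib and Nfib+Mycl1 arrays lie lower than control and Mycl1; the mean covers genes that went both ways with Mycl1.

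Fibroblast markers, of which 7 of 10 were above the filter on all arrays, rose with Nfib: 7 of 10 tested rose in Nfib versus control (4 without the 2 doubted arrays), against 5.3% of all genes. Fewer rose where Mycl1 was present: 2 of 10 in Nfib+Mycl1 versus Mycl1, and 1 of 10 in Nfib+Mycl1 versus control, where 16.3% of all genes rose. The sum of the fibroblast markers in 3583T3 was between 12.65 and 13.05 in control and between 13.91 and 14.19 with Nfib. In 3151T4 it was between 14.56 and 14.61 and between 15.16 and 15.27. With Mycl1 it was 12.91 to 13.38 in 3583T3 and 13.83 to 13.97 in 3151T4, and with Nfib+Mycl1 14.02 to 14.17 and 14.19 to 14.45. Endothelial markers had 5 of 8 below the filter on every array (Pecam1, Cdh5, Tek, Tie1 and Vwf). The sum of the 8 in 3583T3 was 11.35 to 11.37 in control, 10.48 to 10.56 with Mycl1, 6.44 to 9.61 with Nfib and 6.63 to 9.29 with Nfib+Mycl1. Only Esam, named after its value was seen, came near the control sum (2.11 to 11.31 over the arrays). Emcn read 2.04 to 8.47 and Kdr 3.88 to 5.01. In Nfib versus control 0 of 3 endothelial genes tested passed by limma. Of 12 lung epithelium markers 5 never passed the filter, and in 3151T4 their sum was 11.26 to 11.67 in control and 9.83 to 9.84 with Nfib (14.53 to 14.75 and 13.87 to 14.24 in 3583T3). In Nfib versus control 0 of 7 tested rose and 3 fell, the keratins Krt8 (-1.90 ± 0.44, limma adjusted p = 0.0112), Krt18 (-1.43 ± 0.32, 0.0101) and Krt19 (-1.52 ± 0.27, 0.00197), and the same number fell without the 2 doubted arrays. In Nfib+Mycl1 versus Mycl1 these keratins were not called: Krt8 -1.11 ± 0.44 (limma adjusted p = 0.147), Krt18 -0.50 ± 0.32 (0.359) and Krt19 -0.33 ± 0.27 (0.471). The 1 of the 7 that fell there was Cdh1 (-0.65 ± 0.17, adjusted p = 0.0432). Between the lines 5 of the 7 were higher in 3583T3 and 0 lower. Among them were Krt8 (5.0 ± 0.31, limma adjusted p = 2.4e-09), Cdh1 (4.06 ± 0.12, 4.67e-13), Krt18 (3.60 ± 0.23, 3.39e-09) and Krt19 (2.64 ± 0.19, 1.23e-08). These 4 epithelial genes were named after their values were seen. Of 9 glial markers on the array the defining Gfap, Sox10, Olig1 and Olig2 never passed the filter, and the sum in 3151T4 was 10.93 to 11.11 in control and 12.07 to 12.30 with Nfib, while in 3583T3 it was 9.55 to 9.64 and 9.34 to 9.75. In Nfib versus control 0 of 4 glial genes tested passed by limma, 0 at an unadjusted p under 0.05, and Slc1a3 was at 0.71 ± 0.47 (adjusted p = 0.403). The part of leukocyte, fibroblast, endothelial, epithelial and glial RNA in the levels of the 8 genes was not tested.

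How alike the genes are was described over the 8 group means, which share arrays and the line difference, so no p is given. Pairs correlated from r = 0.49 (Bex4 with Car8) to 0.99 (Padi2 with Tll1), with Ptprz1 and Padi2 at 0.98 and Bex1 with Bex4 at 0.84. The genes most like the mean of the 7 standardised genes were Pkp2 (plakophilin of desmosomes, r = 0.99), Csrp1 (0.98), Bik (0.98), Kalrn (0.98), Fez2 (0.98), Tmem63b (0.97), Sh3bgr (0.97) and Ubxn2a (0.97). Among them Bik, which encodes a pro-apoptotic BCL2 family protein, had log2 differences of -2.20 in Nfib versus control and -2.35 in Nfib+Mycl1 versus Mycl1, close in size to those of Padi2. Pkp2, by contrast, was at -0.77 and -0.71 at a level of 9.86 to 11.38. The single best matches were Rdh10 for Padi2, Icmt for Ptprz1 and Hoxd9 for Bex4 (each r = 1.00), Csrp1 for Tll1 and Depdc7 for Bex1 (each 0.99), Tuft1 for Car8 (0.98) and Trav9d-3 for Chodl (0.97).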

How the data were processed

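Total RNA was hybridised to Affymetrix arrays after NuGEN Ovation V2 amplification (labels' protocols). The authors deposited log2 values, 1 per probe set and array. Per the submitters' processing notes, the tools were GCRMA 2.20.0 and R 2.11.0. The GCRMA method corrects background by probe sequence, normalizes arrays by quantiles and summarises probes. The log2 scale is inferred from the range of the values. Of 22690 probe sets, 20380 have 1 gene symbol and were named, 691 have several and 1555 none, and 64 control probe sets were left out. No column was left out (0).

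For each gene the brightest probe set above log2 4 on at least 2 arrays was used (8777 of 12393 genes). R 4.3.3 and limma 3.58.1 (lmFit, eBayes with a mean-variance trend) gave the model fits over 16 arrays, with vector and line as additive terms (11 residual degrees of freedom). Differences within and between lines came from 8 group means (8 residual degrees of freedom). Calls are at a Benjamini-Hochberg adjusted p under 0.05 over all genes. The 8 genes and all lists were chosen with earlier results of these data known. Comparisons with the Nfib vector carry no test for the 8 genes. Genes of the related lists keep their adjusted p, and up to 3 per list, those with the smallest p, are named, with the genes most like the 8 over group means. The number of arrays limits the precision. The fitting code was checked on simulated data. Same-numbered arrays were checked for pairing, and their deviations correlated from -0.74 to 0.31. The -0.74 is between 3583T3 Nfib and 3583T3 Nfib+Mycl1, the groups that hold the 2 doubted arrays, so it does not bear on pairing alone. The other values ran from -0.40 to 0.31, and the numbers were not taken to pair the samples. Alternatives were the filter, every probe set, the scaling, the variance trend, array weights, 8 group means, the replicate block, averaged replicates and left-out arrays.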

Additional observations from a re-analysis of the deposited data

Results flagged for a closer look

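By the labels, the Mycl1 difference of Bex1 in cells with the Nfib vector was called as unlike between the 2 lines. The call did not hold without the 2 doubted arrays. Nfib+Mycl1 minus Nfib was -0.93 ± 0.41 (SE, n = 2 arrays a side) in 3583T3 and 1.45 ± 0.41 in 3151T4. The difference between the lines, -2.38 ± 0.58, passed the test (limma, adjusted p = 0.0235), as did 7.53% of all genes tested. The 3583T3 value rests on the arrays whose Mycl signal goes against their labels, and without both it was 0.07 (1 array a side) and the difference between the lines -1.38 (adjusted p = 0.182). Bex1 on the 3583T3 arrays with the Nfib vector can also be sorted by Mycl signal. It read 8.21 and 7.12 where that signal was low, and 8.29 and 9.05 where it was high. With the labels kept and the replicate number as a block, the adjusted p was 0.057.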

How the results depend on the processing

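The number of genes at least 2-fold lower stayed at 7 in the 4 comparisons with the Nfib vector under all alternatives run. The replicate block gives no line comparison, since replicate numbers differ between the lines. Under the other alternatives the 6 line calls (Bex4 among them) held in all but averaged replicates (4). The Mycl1 results are less stable. In Mycl1 versus control the count of 1 became 0 with no filter, with the filter at log2 6, with array weights, with the replicate number as a block and with averaged replicates, and 2 with 8 group means and without the 2 doubted arrays. In Nfib+Mycl1 versus Nfib the count of 0 became 1 with array weights, with 8 group means and without the 2 doubted arrays. Between lines, the Mycl1 response count of 0 became 1 without those arrays, and the Nfib+Mycl1 versus Nfib response count of 1 became 0 with the replicate block. Leaving out 1 array, the counts ranged from 0 to 1 in Mycl1 versus control, Nfib+Mycl1 versus Nfib and the latter's line difference. With the block, the adjusted p was 0.066 for Chodl in Mycl1 versus control and 0.057 for the Bex1 line difference.

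Values that changed sign were small or of large error. Bex4 in Mycl1 versus control was -0.51 with array weights. Without the 2 doubted arrays Ptprz1 in Nfib+Mycl1 versus Nfib was -0.031, its line difference -0.58 and that of Padi2 -0.17. With median centring the Ptprz1 line difference was -0.14, and with a second quantile normalization the Tll1 line difference of the Mycl1 response was -9e-04. Leaving out 1 array in turn, values in Nfib+Mycl1 versus Nfib ranged from -0.14 to 0.75 for Bex1, -0.44 to 1.33 for Bex4, -0.052 to 0.83 for Car8, -0.25 to 0.13 for Padi2 and -0.11 to 0.37 for Ptprz1. Bex4 in Mycl1 versus control ranged from -0.46 to 0.84, the Ptprz1 line difference from -0.39 to 0.40 and that of Tll1 for Mycl1 from -0.23 to 0.30. For these changes the cause was not tested. Of the related genes named in the vector comparisons, all but Uchl1 lost their call with averaged replicates. Their calls in Nfib versus Mycl1, and that of Cdh1, were not rerun. Values at the dim level set how far Bex2, Bex4 and the 3151T4 levels can be read.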
